A study of Bos taurus with 6 samples.

Results

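The MYC, MAX and MXD network was followed here through 10 genes: the MYC paralogs MYC, MYCN and MYCL, their partner MAX, the antagonists MXD1, MXD3, MXD4, MXI1 and MNT, and the related factor MLXIP. The genes were chosen by name, with earlier results of these data known. They were matched by symbol in the deposited TPM table and by Entrez identifier in the count matrix. All 10 were found among the 19163 genes of the count matrix, and all 10 passed the filter on low counts that left 13001 genes for testing. The RNA came from F7, a bovine embryonic stem cell line derived from an IVF embryo of the Holstein Friesian breed, and the question was how its expression differed between 2 kinds of feeder layer. MC-F7 cells (called 1M in the labels) were grown on living mouse embryonic fibroblasts whose division had been stopped with mitomycin C, and MT-F7 cells were grown on mouse embryonic fibroblasts fixed with methanol, which kills them. Each group had 3 libraries and is described as 15 passages. RNA was taken from the cells that stayed afloat after a short plating on gelatin, a step meant to remove feeder cells that attach. The paper reports that a smaller share of reads aligned to the bovine genome in MC-F7 than in MT-F7. It proposes that fixed feeders left less feeder cell contamination. How much feeder RNA was counted in each group was not tested. Both groups are the same single line, so the comparison holds for F7 only. By the paper's methods, medium was changed every day for MC-F7 and every other day for MT-F7. Effects of the feeder layer and of the feeding interval therefore cannot be told apart.

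MYC proteins act as dimers with MAX, which bind E-box sequences and recruit histone acetyltransferase complexes to genes of growth, ribosome production and metabolism. The MXD proteins, MXI1 and MNT compete for MAX and for the same sequences, and bring the SIN3 corepressor with its histone deacetylases. MLXIP, also called MondoA, pairs with MLX instead of MAX, responds to glucose-derived metabolites and induces TXNIP and ARRDC4. In pluripotent cells MYC and MYCN are known for sustaining rapid growth and self-renewal.

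The libraries held 21958386 to 24933430 counted reads, at which 3 counts correspond to a CPM (counts in every 1000000) of 0.120 to 0.137, a limit that covers counting error only. Genes of the mitochondrial genome took 16.3% to 28.3% of the counts in MC-F7 and 18.0% to 27.9% in MT-F7, with the highest share in replicate 3 of each group. No source used here says that replicate libraries were grown as separate cultures, and the study describes its data as technical replicates, so the SDs and p-values may cover only technical spread. In bulk RNA of this kind, fewer cells of a type and less RNA per cell cannot be told apart. In this paragraph a marker is called higher or lower where its adjusted p was under 0.05. Of all tested genes, 11.9% were higher and 11.3% lower in MT-F7 at that threshold. Pluripotent cell markers were present in both groups, but 5 of the 6 analysed here were lower in MT-F7. Of the 8 listed, SOX2 and LIN28B were not found by symbol in the count matrix and were not analysed. The summed level of the list, mostly POU5F1, was 950 to 1588 CPM in MC-F7 and 580 to 629 CPM in MT-F7. Of 11 tested fibroblast markers, 4 were higher and 1, TWIST2, was lower in MT-F7. The sum over the list was 324 to 386 CPM in MC-F7 and 492 to 534 CPM in MT-F7. COL1A1 gave the largest part of that sum and did not pass the threshold. Of the trophectoderm markers 3 were tested and 2, GATA2 and KRT7, were lower in MT-F7. The sums were 52.0 to 78.3 CPM in MC-F7 and 7.43 to 8.25 CPM in MT-F7. KRT7 made up most of them, at 49.8 to 75.6 CPM and 5.83 to 7.05 CPM. CDX2, which defines that lineage, was at 0 in all 6 libraries. Of the hypoblast markers 2 were tested, APOA1 being higher and FOXA2 lower in MT-F7. The sums were 125.5 to 205.7 CPM against 329 to 368 CPM, of which APOA1 gave 120 to 201 and 328 to 366 CPM. GATA4 was at 0 in all 6 libraries. Of 3 tested neural markers PAX6 was higher in MT-F7. The sums were 476 to 547 CPM against 570 to 652 CPM, mostly from NES and TUBB3, neither of which passed the threshold. The part of these shifts in the network results was not tested.

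Of the 10 network genes, 6 differed between the groups at an adjusted p under 0.05, against 23.2% of all tested genes. MXD3 and MXD4 were the 2 genes that rose in MT-F7, a direction taken by 11.9% of all tested genes, and MYCN, MYCL, MXI1 and MLXIP were the 4 that fell, a direction taken by 11.3%. The CPM ranges of the groups did not overlap for 8 of the 10 genes, against 40.0% of all tested genes, with MAX lower and MXD1 higher in MT-F7 as the members that did not pass the test. MYC and MNT overlapped. The median log2 fold change of MT-F7 over MC-F7 was -0.42 over the 10 genes and -0.0026 over all tested genes. The calls of MYCN and MXD3 held in each of the 6 fits that left out a library, and without MC-F7 replicate 2 those were the only 2 members called. Fewer genes were called in general in that fit, 1914 of 13177 tested.

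**Figure D1:**
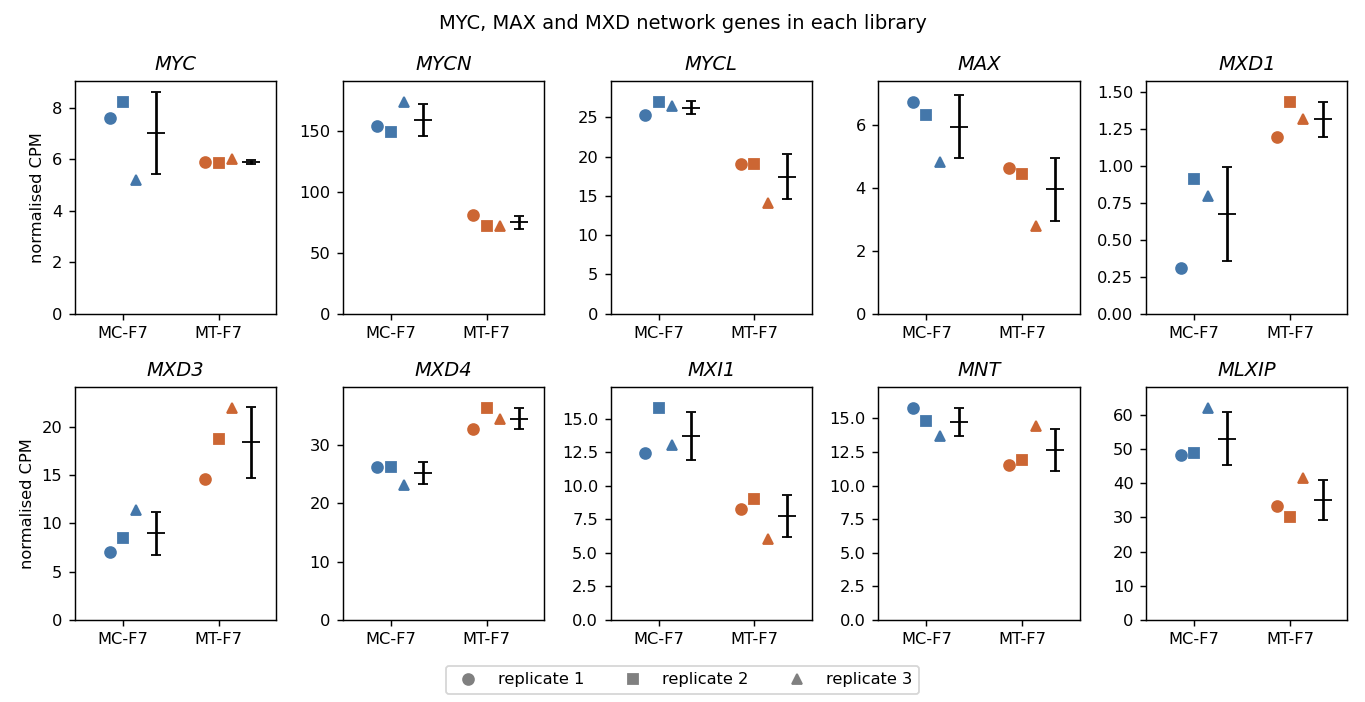
TMM-normalised CPM of the 10 network genes (vertical axes from 0) in the 3 MC-F7 libraries (blue) and the 3 MT-F7 libraries (orange), with marker shape for the replicate number and bars for the mean ± SD. MYCN lay at 148.8 to 173.3 CPM in MC-F7 and 71.6 to 80.8 CPM in MT-F7, MXD3 moved the opposite way, and the groups overlapped for MYC and MNT.

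Among the MYC paralogs, MYCN (Entrez 616888), the paralog best known from embryonic and neural progenitor cells, was by far the most counted. Its level was 153.5, 148.8 and 173.3 CPM in MC-F7 replicates 1 to 3 against 80.8, 72.0 and 71.6 CPM in MT-F7 replicates 1 to 3. Every MT-F7 library lay below every MC-F7 library, and the lowest MC-F7 value was well above the highest MT-F7 value. MYCN fell from 158.5 ± 13.0 to 74.8 ± 5.16 CPM (mean ± SD, n = 3), a 2.12-fold lower level in MT-F7 (log2 fold change -1.08, SE 0.145, edgeR quasi-likelihood test with Benjamini-Hochberg adjustment, adjusted p = 1.88e-04). Only 5.49% of the tested genes had a lower log2 fold change. Under 15 alternative settings (other scalings, filters, tests and sets of libraries, a limit on fold change not counted) the log2 fold change of MYCN stayed between -1.15 and -0.99, and its call held under all 15.

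MYC (511077), the founding member of the family and the paralog most often altered in tumours, was at 7.61, 8.21 and 5.19 CPM in MC-F7 and at 5.90, 5.83 and 5.99 CPM in MT-F7. The MT-F7 values were nearly equal to one another and lay inside the MC-F7 range, in which replicate 3 was the lowest. The means were 7.0 ± 1.6 and 5.91 ± 0.0777 CPM, with a log2 fold change of -0.25 (SE 0.222, adjusted p = 0.46) and a 95% interval of 0.604- to 1.18-fold. A fall of the size seen for MYCN lies outside that interval, while smaller falls and a rise of up to 1.18-fold lie within it.

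MYCL (540350), the paralog first known from lung cancer, was at 25.3, 27.0 and 26.5 CPM in MC-F7 and at 19.1, 19.1 and 14.1 CPM in MT-F7. The groups did not overlap, and MT-F7 replicate 3 was the lowest library. MYCL fell 1.5-fold, from 26.2 ± 0.846 to 17.5 ± 2.87 CPM (log2 fold change -0.59, SE 0.169, adjusted p = 0.0233). Without MC-F7 replicate 2 its adjusted p was 0.0955, and it was also above the threshold in both limma fits, within a range of 0.00243 to 0.0955 over all alternatives.

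MAX (540616), the partner that MYC and MXD proteins share, had few counts (66 in MT-F7 replicate 3, the fewest) and stood at 6.72, 6.30 and 4.82 CPM in MC-F7 against 4.62, 4.44 and 2.80 CPM in MT-F7. Replicate 3 was the lowest library of each group, and the lowest MC-F7 value was just above the highest MT-F7 value. Its means were 5.95 ± 1.00 and 3.96 ± 1.00 CPM (log2 fold change -0.59, SE 0.256, unadjusted p = 0.0396, adjusted p = 0.118), with a 95% interval of 0.453- to 0.978-fold before adjustment over all genes. The log2 fold change was close to that of MYCL, with a wider error, and it did not pass the threshold.

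The MXD genes did not move together. MXD3 (533359), a MAX partner reported mainly in dividing progenitors, was at 7.03, 8.50 and 11.4 CPM in MC-F7 and at 14.6, 18.7 and 21.9 CPM in MT-F7. All MT-F7 libraries were above all MC-F7 libraries, although the spread within each group was wide. MXD3 rose 2.05-fold, from 8.98 ± 2.23 to 18.4 ± 3.68 CPM (log2 fold change 1.04, SE 0.219, adjusted p = 0.00454), and 93.0% of tested genes had a lower log2 fold change. Its adjusted p stayed between 1.43e-05 and 0.0267 over the 15 alternatives.

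MXD4 (541116), an antagonist that is usually linked to cells leaving the cycle, was at 26.2, 26.3 and 23.1 CPM in MC-F7 and at 32.7, 36.3 and 34.6 CPM in MT-F7. The groups were separate and the values within each were close. MXD4 rose 1.37-fold, from 25.2 ± 1.84 to 34.5 ± 1.80 CPM (log2 fold change 0.45, SE 0.150, adjusted p = 0.0443). This call sat at the threshold: it was lost in each of the 6 fits that left out a library (adjusted p from 0.0527 without MT-F7 replicate 3 to 0.145 without MT-F7 replicate 2) and with no filter on low counts (0.0555), while the log2 fold change stayed between 0.39 and 0.53 over all 15 alternatives.

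MXD1 (514626), the first MAD protein described and a gene induced during differentiation of blood and skin cells, had the fewest counts of the 10 genes. Its MC-F7 counts were 7, 22 and 17 and its MT-F7 counts were 30, 37 and 31, or 0.310, 0.912 and 0.795 CPM against 1.20, 1.43 and 1.32 CPM. The MT-F7 libraries were all higher, and MC-F7 replicate 1 was far below the other libraries. The log2 fold change was 0.96 (SE 0.445, adjusted p = 0.142), with a 95% interval of 0.996- to 3.79-fold, so the size of any difference was poorly fixed at this depth.

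MXI1 (614509), also called MXD2, went the other way from MXD3 and MXD4. It was at 12.4, 15.8 and 13.1 CPM in MC-F7 and at 8.29, 9.04 and 6.03 CPM in MT-F7, with every MT-F7 library lower. MXI1 fell 1.77-fold, from 13.8 ± 1.79 to 7.79 ± 1.57 CPM (log2 fold change -0.82, SE 0.203, adjusted p = 0.0108). The call held under 14 of 15 alternatives and was lost without MC-F7 replicate 2 (adjusted p = 0.07), within a range of 5.79e-04 to 0.07.

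MNT (618576), a broadly expressed antagonist that pairs with MAX in resting and dividing cells alike, was at 15.8, 14.8 and 13.7 CPM in MC-F7 and at 11.6, 11.9 and 14.4 CPM in MT-F7. MT-F7 replicate 3 lay within the MC-F7 range, so the groups overlapped. The means were 14.8 ± 1.02 and 12.6 ± 1.57 CPM (log2 fold change -0.22, SE 0.172, adjusted p = 0.383), with a 95% interval of 0.662- to 1.11-fold.

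MLXIP (783217) was at 48.4, 48.8 and 61.9 CPM in MC-F7 and at 33.3, 30.1 and 41.4 CPM in MT-F7. The groups were separate, and replicate 3 was the highest library of each. MLXIP fell 1.52-fold, from 53.0 ± 7.71 to 34.9 ± 5.85 CPM (log2 fold change -0.60, SE 0.173, adjusted p = 0.0233). Its call was lost when MC-F7 replicate 2 (adjusted p = 0.0566), MC-F7 replicate 3 (0.0605), MT-F7 replicate 1 (0.0885) or MT-F7 replicate 2 (0.108) was left out and in both limma fits, with a range of 6.17e-04 to 0.108 over all alternatives and the same direction in each.

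**Figure D2:**
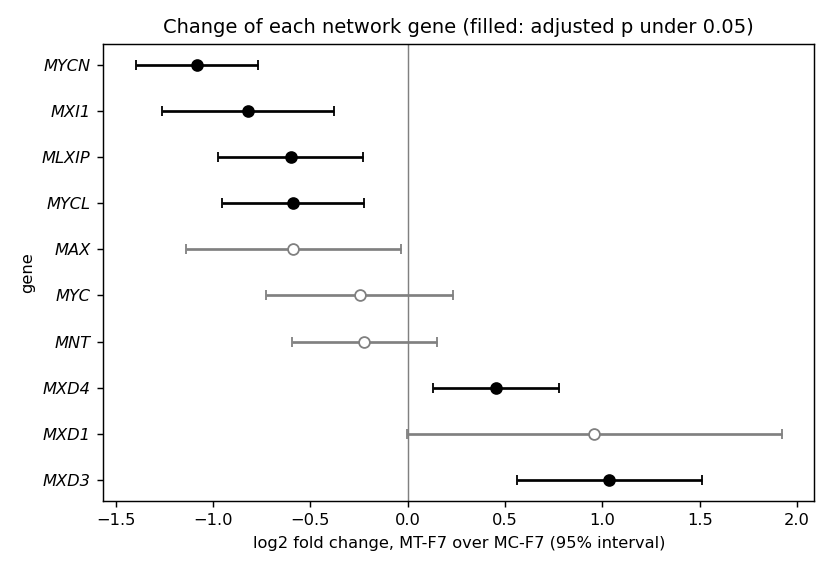
Log2 fold change of MT-F7 over MC-F7 (horizontal axis) for each network gene (vertical axis), with its 95% interval and with filled points for an adjusted p under 0.05. MYCN at -1.08 and MXD3 at 1.04 lie at the ends, and the intervals of MYC, MNT and MXD1 include 0.

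Levels of different genes were compared per transcript length, on the deposited TPM values rescaled so that each library adds up to 1000000. On this scale MYCN led in both groups, at 90.2 ± 4.54 in MC-F7 and 45.1 ± 4.07 in MT-F7 (rescaled TPM, SD, n = 3). MXD4 was next in both, at 15.3 ± 1.61 and 22.1 ± 1.79. In MC-F7 the order then ran through MLXIP (9.30 ± 1.08), MYCL (8.90 ± 0.544), MXD3 (7.23 ± 1.63), MAX (5.88 ± 1.12) and MXI1 (5.14 ± 0.861), and the ranges of each neighbouring pair in this stretch overlapped. MNT (3.58 ± 0.323) and MYC (3.42 ± 0.888) followed and overlapped each other, and MXD1 was lowest at 0.368 ± 0.181.

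In MT-F7, MXD3 stood at 15.7 ± 2.74 rescaled TPM, below MXD4 and above all later genes without overlap. The following genes, MLXIP (6.47 ± 0.772), MYCL (6.29 ± 1.28), MAX (4.15 ± 1.19), MNT (3.23 ± 0.265), MXI1 (3.09 ± 0.747) and MYC (3.04 ± 0.10), overlapped neighbour by neighbour. MXD1 was again last, at 0.758 ± 0.0868 rescaled TPM.

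MYCN made up most of the paralog sum in every library. The sum of MYC, MYCN and MYCL was 99.0, 102.0 and 106.4 rescaled TPM in MC-F7 against 59.1, 55.4 and 48.7 in MT-F7. MYCN took 87.7%, 86.6% and 89.6% of it in MC-F7 against 83.1%, 81.5% and 84.1% in MT-F7. The share was thus lower in all MT-F7 libraries while MYCN stayed the main paralog.

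The share of MYC in the paralog sum was 3.71%, 4.08% and 2.29% in MC-F7 against 5.18%, 5.63% and 5.998% in MT-F7. The means were 3.36% ± 0.944 and 5.60% ± 0.411 (SD, n = 3), a difference of 2.24 percentage points (exact two-sided permutation test, p = 0.1). With 3 libraries against 3 this is the smallest p the exact test can give, so it cannot pass 0.05. The CPM of MYC itself overlapped between the groups, as given above.

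The level of MYCN was 23.7, 21.3 and 39.1 times that of MYC in the MC-F7 libraries and 16.1, 14.5 and 14.03 times in the MT-F7 libraries, again without overlap. On the log2 scale the ratio of MYC to MYCN was 0.86 higher in MT-F7 (exact permutation p = 0.1), and 0.60 higher without MC-F7 replicate 3, the library with the lowest MYC. The ratio of MYCN to MAX was 15.9 ± 4.26 in MC-F7 and 11.4 ± 2.93 in MT-F7, and the groups overlapped (exact permutation p = 0.3).

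The summed level of the antagonists MXD1, MXD3, MXD4, MXI1 and MNT was 30.0, 34.2 and 30.7 rescaled TPM in MC-F7 against 40.7, 48.6 and 45.3 in MT-F7. Relative to the paralog sum of the same library this was 0.303, 0.335 and 0.289 in MC-F7 against 0.689, 0.877 and 0.929 in MT-F7. The ratio therefore went from 0.309 ± 0.0237 to 0.832 ± 0.127, 1.42 higher on the log2 scale (exact permutation p = 0.1, the smallest possible). It was computed within each library, so scaling between libraries does not enter it, and the log2 difference stayed between 1.33 and 1.55 when any 1 library was left out.

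The make-up of the antagonist sum also differed. MXD4 gave 48.4% ± 4.34 of it in MC-F7 and 49.4% ± 2.79 in MT-F7, with overlapping groups (exact permutation p = 0.8). MXD3 gave 22.9% ± 5.35 and 34.8% ± 4.20, and MXI1 16.2% ± 1.53 and 6.91% ± 1.68, both without overlap (exact permutation p = 0.1 each). MNT gave 11.3% ± 1.16 and 7.22% ± 0.614, and MXD1 1.15% ± 0.514 and 1.69% ± 0.0883, also without overlap (exact permutation p = 0.1 each). A share also depends on the other genes of the sum. The CPM of MNT itself overlapped between the groups, and MXD1, with few counts, did not pass the test, as given above.

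**Figure D3:**
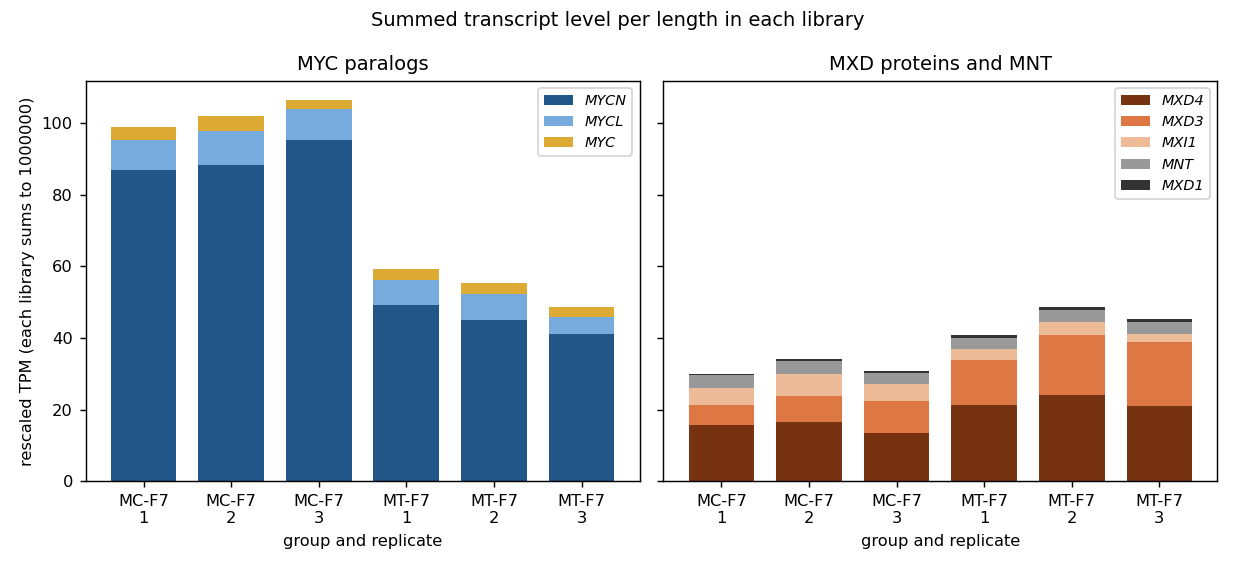
Rescaled TPM (per length, each library summing to 1000000) of the MYC paralogs (left) and of the MXD genes with MNT (right), stacked by gene for each of the 6 libraries. The paralog bars reach 99.0 to 106.4 in MC-F7 and 48.7 to 59.1 in MT-F7, mostly MYCN, while the antagonist bars reach 30.0 to 34.2 and 40.7 to 48.6.

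The MLX branch of the network was read from its other partners and its best known targets. MLXIPL, also called ChREBP, the glucose-responsive relative of MLXIP in liver and fat, was read from 62, 81 and 142 MC-F7 counts and from 8, 20 and 27 MT-F7 counts, with no overlap. It fell from 4.25 ± 2.10 to 0.746 ± 0.415 CPM (log2 fold change -2.51, SE 0.459, adjusted p = 0.0018). MLX, the common partner, was at 24.6 ± 2.41 and 23.9 ± 1.54 CPM with overlapping groups (log2 fold change -0.04, adjusted p = 0.871), a difference whose sign changed in both limma fits and without replicate 3 of either group. MGA, a MAX partner of a repressive Polycomb-type complex, was at 56.0 ± 3.53 and 49.2 ± 1.65 CPM and did not pass (log2 fold change -0.19, adjusted p = 0.376), although its groups did not overlap.

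Both target genes of MLXIP and MLX fell, a direction in which 11.3% of all tested genes were called. TXNIP, which limits glucose uptake and binds thioredoxin, was at 54.2, 52.2 and 46.7 CPM in MC-F7 and at 23.0, 35.3 and 21.1 CPM in MT-F7 (log2 fold change -0.95, SE 0.197, adjusted p = 0.00402). ARRDC4, an arrestin-domain relative of TXNIP, was at 67.4, 61.9 and 52.1 CPM in MC-F7 and at 25.1, 30.4 and 19.7 CPM in MT-F7 (log2 fold change -1.27, SE 0.185, adjusted p = 3.38e-04). No MT-F7 library reached the MC-F7 range for either gene, a separation with MT-F7 lower that 2607 of all 13001 tested genes had. Both calls held in all 15 alternative settings, while requiring more than 1 in absolute log2 fold change kept ARRDC4 and not TXNIP.

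The proteins that MYC and MXD factors work with were followed in lists of corepressor, cofactor and turnover genes, to be read against the 23.2% of all tested genes that were called. Of 10 SIN3 corepressor genes, 1 passed: SAP30, a subunit that bridges SIN3 and the histone deacetylases, rose from 23.1 ± 4.92 to 38.6 ± 3.11 CPM (log2 fold change 0.74, SE 0.177, adjusted p = 0.00888), a call lost without MC-F7 replicate 2 (adjusted p = 0.0604). Its adjusted p was under the threshold in the other 14 alternatives, from 3.29e-04 to 0.0364, and the list's median log2 fold change was -0.03. Of 10 MYC cofactor genes, 0 passed in edgeR's quasi-likelihood test, 0 in DESeq2 and 0 in limma. In edgeR 0 had an unadjusted p under 0.05, against 4655 of all 13001 tested genes. RUVBL2, a helicase-like subunit of chromatin remodellers, was at 214 ± 32.2 and 189 ± 7.38 CPM (log2 fold change -0.18, adjusted p = 0.433), and TRRAP, a scaffold of acetyltransferase complexes, at 166 ± 37.1 and 150.5 ± 21.9 CPM (log2 fold change -0.14, adjusted p = 0.613, and above 0 without MC-F7 replicate 3).

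Of 13 genes for turnover of MYC proteins, 0 passed in edgeR's quasi-likelihood test, DESeq2 or limma. In edgeR 1 had an unadjusted p under 0.05, against 4655 of all 13001 tested genes. This gene was GSK3B, a kinase that marks MYC and MYCN for degradation (named here after its values were seen). GSK3B was at 21.2 CPM in MC-F7 and 15.5 CPM in MT-F7 on average (log2 fold change -0.44, adjusted p = 0.12). USP7, a deubiquitinase that stabilises MYCN, was at 305 ± 7.61 and 288 ± 2.22 CPM (log2 fold change -0.08, adjusted p = 0.712), and HUWE1, a ubiquitin ligase of MYC proteins, at 205 ± 44.6 and 237 ± 13.8 CPM (log2 fold change 0.21, adjusted p = 0.417). The list's median log2 fold change was -0.08, and 1 gene, USP28, was called without MC-F7 replicate 3.

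Ribosome biogenesis genes, the best known class induced by MYC proteins, lay on the lower side in MT-F7. All 25 tested had a log2 fold change below 0, except that FBL turned above 0 in both limma fits and without MC-F7 replicate 1, NPM1 without MT-F7 replicate 3 and RRP12 without MT-F7 replicate 2 (3 genes named after their values were seen). The median was -0.42, against -0.0026 over all tested genes, and 10 of the 25 passed, all lower, where 11.3% of all tested genes were called lower. The groups of 16 of the 25 did not overlap, all with MT-F7 lower. Of all 13001 tested genes, 40.0% did not overlap in either direction, and 2607 did not overlap with MT-F7 lower.

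PPAN, a factor for the large ribosomal subunit, fell from 249 ± 35.8 to 144 ± 22.7 CPM (log2 fold change -0.79, SE 0.170, adjusted p = 0.00484). NOP2, an rRNA methyltransferase, fell from 231 ± 32.5 to 135 ± 12.8 CPM (log2 fold change -0.77, SE 0.158, adjusted p = 0.0036). WDR43, a nucleolar protein of pre-rRNA processing, fell from 171 ± 11.8 to 105 ± 4.76 CPM (log2 fold change -0.70, SE 0.141, adjusted p = 0.00341). These 3 genes were called in every fit that left out a library. NOLC1, a nucleolar chaperone of small ribonucleoproteins, fell from 259.7 ± 25.9 to 174.5 ± 10.9 CPM (log2 fold change -0.57, SE 0.148, adjusted p = 0.0137), but not without MC-F7 replicate 2 (0.074) or MT-F7 replicate 1 (0.0501), with a range of 0.0011 to 0.074 over all alternatives. The number called was 3 without MC-F7 replicate 2, 3 without MT-F7 replicate 1, 4 without MT-F7 replicate 2 and 6 in each limma fit. Of all genes tested, those 3 edgeR fits called 895 of 13177, 995 of 13247 and 1016 of 13242 lower. The limma fits called 1071 (on log2(TPM + 0.1)) and 1083 (on log2(TPM + 1)) of 12693 lower.

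Growth and metabolism genes counted as MYC-induced were called about as often as tested genes in general. Of 28 listed, TERT was too low to test, and of the other 27, 5 fell, 2 rose and 20 did not pass, with a median log2 fold change of -0.15. The share called was 25.9%, against 23.2% of all tested genes. LDHA, which turns pyruvate into lactate, fell from 534 ± 152 to 32.3 ± 7.78 CPM (log2 fold change -4.05, SE 0.262, adjusted p = 7.65e-07). SLC7A5 and SLC3A2, which together form a transporter for large neutral amino acids, fell by 0.93 (SE 0.168, adjusted p = 0.00165) and by 0.77 (SE 0.169, adjusted p = 0.00544) on the log2 scale. BCAT1, an enzyme of branched-chain amino acid metabolism, rose from 23.8 ± 4.13 to 42.6 ± 8.20 CPM (log2 fold change 0.84, SE 0.191, adjusted p = 0.0068). LDHA is also a known target of hypoxia-inducible factors. The other 3 called genes, named after their values were seen, were SHMT2, of serine and one-carbon metabolism, and PPAT, of purine synthesis, which fell (log2 fold changes -0.74 and -0.64, adjusted p = 0.00662 and 0.0101), and CDK4, a G1 kinase, which rose (log2 fold change 0.54, adjusted p = 0.0207). CDK4 was not called without MC-F7 replicate 2, MC-F7 replicate 3, MT-F7 replicate 1 or MT-F7 replicate 2, and the list then held 6 called genes, or 7 without MC-F7 replicate 3, where CAD took its place.

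Of 7 tested genes that MYC proteins are known to repress, 2 rose and 2 fell, where 11.9% of all tested genes were called higher and 11.3% lower, and the median log2 fold change was 0.06. CDKN1A, which encodes the cyclin-dependent kinase inhibitor p21, was at 11.5, 12.5 and 10.4 CPM in MC-F7 and at 25.5, 23.2 and 26.0 CPM in MT-F7. CDKN1A rose 2.17-fold (log2 fold change 1.12, SE 0.162, adjusted p = 3.23e-04). CDKN1B, which encodes the inhibitor p27, rose from 11.6 ± 2.68 to 20.9 ± 4.25 CPM (log2 fold change 0.85, SE 0.213, adjusted p = 0.0112), a call lost without MT-F7 replicate 2 (0.0579, the highest of a range that starts at 1.85e-04).

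NDRG1, a differentiation- and stress-responsive gene, fell from 31.5 ± 6.39 to 20.5 ± 1.27 CPM (log2 fold change -0.62, SE 0.177, adjusted p = 0.0233), and GAS1, a growth arrest gene, fell from 10.9 ± 1.59 to 7.12 ± 0.564 CPM (log2 fold change -0.61, SE 0.192, adjusted p = 0.0349). The call of NDRG1 was lost without MC-F7 replicate 1 (0.0916), MC-F7 replicate 2 (0.0851), MT-F7 replicate 1 (0.0722) or MT-F7 replicate 2 (0.0522), over a range of 0.00182 to 0.0916. That of GAS1 was lost when any library but MC-F7 replicate 1 was left out, over a range of 0.0128 to 0.144, and both were lost in the limma fits. CDKN2B was too low to test.

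Of 8 proliferation genes, 0 passed in edgeR's quasi-likelihood test, DESeq2 or limma, where edgeR called 23.2% of all tested genes. In edgeR 2 had an unadjusted p under 0.05, as did 4655 of all 13001 tested genes. The 2 were CDK1 and CCNB1 (named after their values were seen), which both drive entry into mitosis. CDK1 had a log2 fold change of -0.37 (adjusted p = 0.126) and CCNB1 of -0.39 (adjusted p = 0.138). Without MC-F7 replicate 3 the number called in the list was 2, where 3093 of all 13197 tested genes were called. TOP2A, a topoisomerase of dividing cells, was at 589.7 ± 112 CPM in MC-F7 and 604 ± 170.0 CPM in MT-F7, with overlapping groups (log2 fold change 0.04, adjusted p = 0.927). MCM2, a subunit of the replicative helicase, was at 593 ± 54.1 and 596 ± 42.9 CPM (log2 fold change 0.01, adjusted p = 0.973). The sign of both values changed in 3 of the 6 fits that left out a library, and the 95% intervals of the log2 fold change were -0.44 to 0.52 for TOP2A and -0.32 to 0.34 for MCM2.

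**Figure D4:**
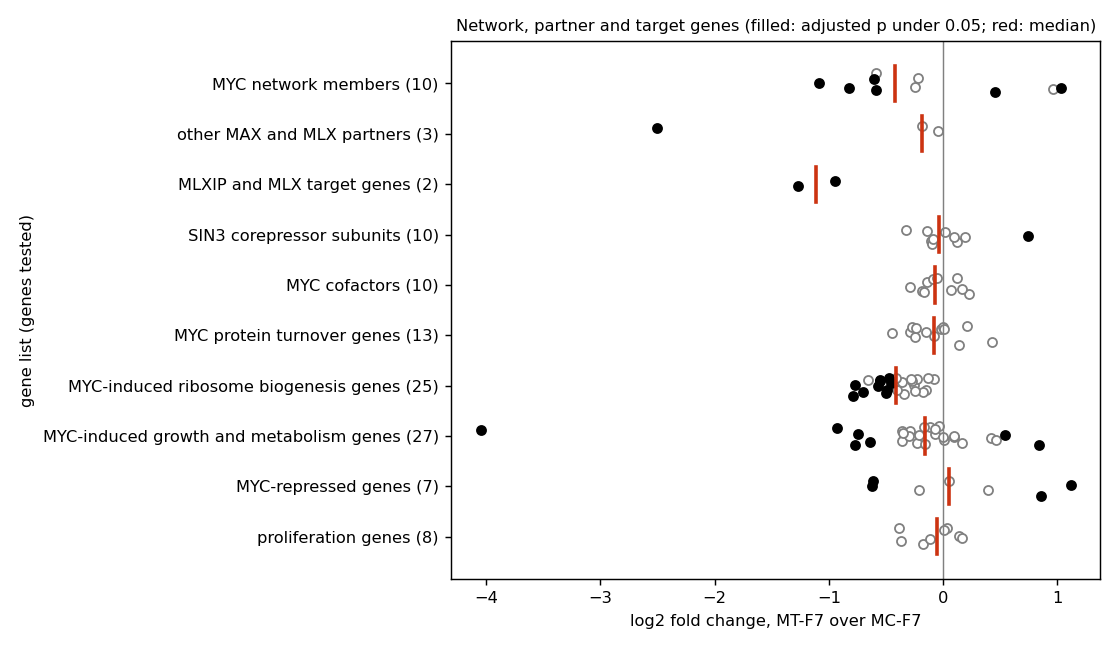
Log2 fold change of MT-F7 over MC-F7 (horizontal axis) for each tested gene of the network and of its partner and target lists (vertical axis, with the number tested), filled where the adjusted p was under 0.05 and with a red bar at the median. The ribosome biogenesis genes all lie below 0 in this fit (FBL does not in limma, nor FBL, NPM1 and RRP12 in 1 fit each that left out a library), with a median of -0.42, the cofactor, turnover and proliferation lists hold no filled point, and LDHA is the point at -4.05.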

How the data were processed

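RNA-seq of 6 libraries was used, 3 of MC-F7 and 3 of MT-F7, grouped by their labels. The authors aligned reads with HISAT2 2.0.5 and counted them on genes with featureCounts 1.5.0-p3 (version numbers from their processing notes). Raw counts for each Entrez gene were deposited by the authors. The genome build and the use of strand in counting are not given in the sources used here, so overlapping and antisense genes may share reads. The sources describe alignment to the bovine genome and no separate removal of reads from the mouse feeder cells. A second deposited table holds values that the authors call TPM. For each network gene these TPM values were a constant multiple of the counts in all 6 libraries, and the columns added up to 154763 to 164394 after repeated identifiers were merged. They were rescaled to 1000000 per library for levels per length.

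Counts were filtered with filterByExpr (minimum count 10, minimum total 15) in edgeR 4.0.16 under R 4.3.3, normalised by TMM (factors 0.971 to 1.04) and compared by the quasi-likelihood test, two-sided, with Benjamini-Hochberg adjustment over 13001 genes and a threshold of 0.05. No p was adjusted over a list alone, and no test was run on a list. CPM are TMM-normalised. Ratios within a library were compared by an exact permutation test. Simulated counts were used to test the steps. Tables were made with Python 3.11.15, pandas 2.3.3 and scipy 1.17.1.

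The network genes and lists were chosen with earlier results of these data known. All 10 network genes, the other MLX and MAX partners and the targets of MLXIP were named, and from each other list up to 4 called genes with the largest change, or, with none called, the 2 with the highest mean CPM. Alternatives were RLE factors, library size only, DESeq2 1.42.0, no filter, a stricter filter (10 counts per library), a block for the replicate number, omission of each library in turn, removal of mitochondrial genes, limma 3.58.1 on log2(TPM + 1) and log2(TPM + 0.1), an absolute log2 fold change over 1 and, for ratios, raw counts. Promoter and protein sequences were not analysed here.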

Additional observations from a re-analysis of the deposited data

How the results depend on the processing

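No network gene changed direction over 15 alternatives (14 for MXD1, which did not pass the filter of 10 counts in every library), the limit on fold change not counted. MYCN and MXD3 were called in 15, MXI1 in 14, MYCL in 12, MLXIP in 9, MXD4 in 8, MAX in 1, and MYC, MNT and MXD1 in none. Of all tested genes 3016 were called, against 1914 to 3093 with a library left out and 1489 with an absolute log2 fold change over 1. The split of 1553 higher and 1463 lower became 1742 and 1071 in limma on log2(TPM + 0.1) and 1771 and 1083 on log2(TPM + 1). With a library left out, 2 to 5 network genes were called (6 with all), 0 to 2 SIN3 genes (1), 0 to 1 turnover genes (0), 3 to 11 ribosome biogenesis genes (10), 1 to 3 repressed genes (4) and 0 to 2 proliferation genes (0). With an absolute log2 fold change over 1, the counts were 2 network genes, 1 MLXIP target, 0 SIN3, 0 ribosome biogenesis, 1 growth and 1 repressed gene. Both limma fits called 6 ribosome biogenesis and 2 repressed genes. The filter of 10 counts in every library left 0 of the other partners called, because MLXIPL no longer entered.

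Same-numbered libraries correlated in their deviations from the group means at 0.134, 0.0445 and 0.417, and not every library correlated best with its own number, so the numbers were not taken to pair the libraries. With the replicate block 4674 genes were called, and 2 SIN3, 2 turnover, 16 ribosome biogenesis, 12 growth and 2 proliferation genes. The network count was then 7, with MAX added (adjusted p = 0.0384, from a range of 0.0384 to 0.278). The block left the mean ratios within libraries as they were, at 0.86, 2.24 and 1.42, with an exact p of 0.25, the smallest it can give.

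Signs changed for MLX in limma, to 0.0394 and 0.0375, and for FBL, to 0.012 and 0.0119. With a library left out, the log2 fold changes ran from -0.12 to 0.0099 for MLX, -0.19 to 0.051 for FBL, -0.28 to 0.032 for TRRAP, -0.28 to 0.021 for RRP12, -0.31 to 0.080 for NPM1, -0.058 to 0.088 for MCM2 and -0.11 to 0.25 for TOP2A. The cause of these moves was not tested. Depth limited MXD1 most, with 7 to 37 counts per library.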
